A study of Sus scrofa with 18 samples.

Results

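The 10 core genes of the transforming growth factor beta (TGF-beta) pathway were examined in the myometrium of Yorkshire gilts: the ligands TGFB1, TGFB2 and TGFB3, the receptors TGFBR1, TGFBR2 and TGFBR3, and the signal transducers SMAD2, SMAD3, SMAD4 and SMAD7. They were taken by name, as the ligands, receptors and SMADs of the pathway, from the 28210 RefSeq genes on the named chromosomes of the pig assembly. The chromatin of 3 tissues was profiled by CUT&Tag, in which a protein A-Tn5 fusion cuts the DNA beside an antibody-bound mark. GD15M_CM was the circular muscle (CM) and GD15M_LM the longitudinal muscle (LM) of gilts on day 15 of pregnancy, and CD15M_CM was the circular muscle of gilts on day 15 of the oestrous cycle, each taken from the mesometrial side of the uterus. Each tissue had libraries for H3K4me3, H3K27ac and an IgG control from 2 gilts, 18 libraries in all. Reads of both gilts had been pooled before peaks were called, so each mark and tissue gave 1 peak list. The values of these lists carry no spread between gilts and allowed no test between tissues, and signal per gilt was not analysed here.

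TGF-beta ligands are secreted in a latent form and, once released, bring the type II receptor TGFBR2 and the type I receptor TGFBR1 together at the cell surface. The activated type I receptor phosphorylates SMAD2 and SMAD3, which join SMAD4 and enter the nucleus to regulate transcription, while SMAD7 blocks the receptors and is itself induced by the signal. In smooth muscle the pathway is known for promoting contractile genes and matrix deposition, and in the uterus also for restraining immune cells around implantation. H3K4me3 is a mark of active promoters, and H3K27ac is found at active promoters and enhancers.

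Every peak that reached the stretch from 3 kb before to 3 kb after a gene was assigned to that gene. The level of a gene was read from its highest peak, first as the fold enrichment of the mark over IgG and then as a percentile, the share of peaks in the same list with an equal or lower fold enrichment. A gene without a peak had percentile 0. Positions are counted from the end of the gene model with the lower coordinate, since the annotation was used without strand and the end that holds the promoter was not determined. Percentiles were compared between tissues because fold enrichments differed in scale: over all genes with a peak in both lists, the median ratio of GD15M_LM to GD15M_CM was 1.24 for H3K4me3 and 1.08 for H3K27ac, and that of GD15M_CM to CD15M_CM was 0.796 and 1.01. A difference of at least 10 percentile points is called a difference in what follows, and the share of all genes called in the same direction is given beside each count.

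The H3K4me3 lists held 31910 to 36331 peaks and the H3K27ac lists 57010 to 82037 peaks. All 8 smooth muscle markers carried peaks of both marks in all 3 tissues, with median percentiles of 77.0 to 90.2 for H3K4me3 and 89.0 to 95.7 for H3K27ac. Markers of other cells were present too. All 6 epithelial markers had H3K27ac peaks in both circular muscle lists, with summed percentiles of 435.4 in GD15M_CM and 354.7 in CD15M_CM, while GD15M_LM had peaks at 4 of 6 with a sum of 104.9 and no peak at KRT18 and KRT19. Their H3K4me3 sums were 472.8, 483.6 and 304.1 in the same order. Of the 5 T cell markers, CD3E, CD3D and PTPRC had no H3K27ac peak in any tissue, and the summed H3K4me3 percentiles were 339.3 in GD15M_CM, 292.3 in GD15M_LM and 273.5 in CD15M_CM. In a bulk tissue, more cells with a mark and more of the mark per cell cannot be told apart.

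All 10 genes had peaks of both marks in all 3 tissues, and in each tissue the highest H3K4me3 peak of every gene overlapped an H3K27ac peak. For H3K4me3 the median percentile of the 10 genes was 89.8 in GD15M_CM, 89.9 in GD15M_LM and 97.3 in CD15M_CM, against 78.9 to 81.6 over all genes with a peak in the lists compared. For H3K27ac it was 95.5, 89.0 and 98.3, against 81.4 to 85.9. The median of the 10 genes was therefore above that of all marked genes in all 6 lists, and a gene above percentile 90 in one list had no room to be called higher in the other. Because a level is the maximum over all peaks of a window, a window with many peaks can rank higher. The medians of all genes were not matched for window length or number of peaks.

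**Figure D1:**
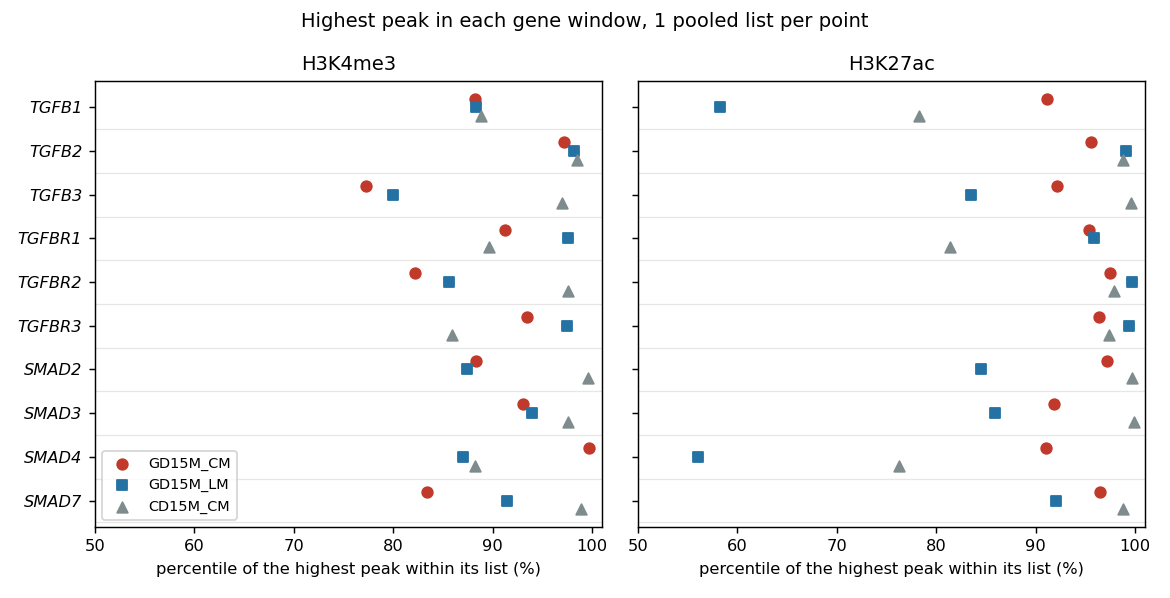
Percentile of the highest H3K4me3 peak (left) and H3K27ac peak (right) of each gene within its list, on an axis from 50 to 100 and with 1 point per tissue: circles for GD15M_CM, squares for GD15M_LM and triangles for CD15M_CM. H3K4me3 points lie between 77.3 and 99.7, and the lowest H3K27ac points are those of SMAD4 (56.1) and TGFB1 (58.3) in GD15M_LM.

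The ligand genes differed in where and how strongly they were marked. TGFB1, the most widely expressed ligand, spans 16.5 kb at chr6:49332169-49348642. Its highest H3K4me3 peak lay across the upper end of the gene, at chr6:49345772-49351127 in GD15M_CM, and also covered LOC110261354 and B9D2, so the mark there cannot be assigned to TGFB1 alone. The fold enrichment of this peak was 19.3 in GD15M_CM, 24.4 in GD15M_LM and 23.8 in CD15M_CM, at percentiles 88.2, 88.3 and 88.8. The H3K4me3 rank of TGFB1 was thus nearly the same in the 3 tissues. H3K27ac was not: its highest peak had a fold enrichment of 5.54 in GD15M_CM, 4.07 in GD15M_LM and 4.48 in CD15M_CM. These values stood at percentiles 91.2, 58.3 and 78.2, so GD15M_CM was 32.9 points above GD15M_LM and 12.9 points above CD15M_CM. The highest H3K27ac peak was not in 1 place, since in GD15M_CM it lay 13.7 to 17.7 kb from the lower end of the gene, in GD15M_LM at 17.9 to 18.7 kb and in CD15M_CM 839 bp before the lower end. By region, the order of the tissues differed. Fold enrichment at 13.7 to 17.7 kb was 5.54 in GD15M_CM, 3.85 in GD15M_LM and 4.39 in CD15M_CM. In the same order, the region starting at 17.9 kb had 2.68, 4.07 and 2.78. The region before the lower end had 3.59, 3.08 and 4.48. These regions were shared by the 3 lists, and each was highest in the tissue that had its highest peak there. With the window widened to 10 kb the gap between the layers was 8.54 points and no longer called.

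TGFB2, a ligand that depends on the co-receptor TGFBR3 for binding, spans 129 kb at chr10:8306136-8435307. Its highest H3K4me3 peak covered the lower end of the gene and had a fold enrichment of 26.7 in GD15M_CM, 36.0 in GD15M_LM and 36.7 in CD15M_CM, at percentiles 97.1, 98.2 and 98.5. This peak reached 4786 bp in GD15M_CM, while its length in GD15M_LM was 7479 bp and in CD15M_CM it was 5128 bp, and each was at least as long as 96.5% of the peaks in its list. H3K27ac was at percentiles 95.6, 99.1 and 98.8, with fold enrichments of 6.42, 9.35 and 7.68. TGFB2 was the one ligand near the top of all 6 lists, and its largest difference between the tissues compared was 3.46 points.

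TGFB3, a ligand of the same family, spans 28.4 kb at chr7:99133873-99162239. It overlaps IFT43, a gene for ciliary transport, under its highest peaks, so the marks there cannot be assigned to TGFB3 alone. Its H3K4me3 level was the lowest of the 10 genes in GD15M_CM, with a fold enrichment of 14.4 at percentile 77.3, and in GD15M_LM, with 19.7 at percentile 80.0. In CD15M_CM the fold enrichment was 32.7 at percentile 97.0, which was 19.7 points above GD15M_CM. The peak that carried this difference lay 24.1 to 26.7 kb from the lower end of the gene, with a fold enrichment of 13.3 in GD15M_CM, 19.7 in GD15M_LM and 32.7 in CD15M_CM. A neighbouring region at 17.2 to 22.5 kb held 14.4, 17.7 and 23.3 in the same order, so both regions were highest in the cyclic tissue. The H3K27ac level of TGFB3 was also highest there, with percentiles of 92.1, 83.5 and 99.6 in GD15M_CM, GD15M_LM and CD15M_CM and fold enrichments of 5.69, 5.53 and 8.64.

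The receptor genes were marked at a single main H3K4me3 peak each. TGFBR1, the type I kinase that phosphorylates SMAD2 and SMAD3, spans 75.5 kb at chr1:240842735-240918267. Its main peak lay inside the gene model, 16.0 to 18.9 kb from the lower end, with no other gene under it. H3K4me3 fold enrichment there was 21.0 in GD15M_CM, 34.1 in GD15M_LM and 24.5 in CD15M_CM, at percentiles 91.2, 97.6 and 89.7. H3K27ac fold enrichment in the same place was 6.34, 7.49 and 4.67, at percentiles 95.4, 95.9 and 81.4. TGFBR1 was therefore highest in GD15M_LM for both marks by fold enrichment, and both pregnant tissues stood 14.0 points or more above the cyclic tissue for H3K27ac. Apart from 2 short peaks in CD15M_CM, its window held no other H3K27ac peak.

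TGFBR2, the ligand-binding type II receptor, spans 91.5 kb at chr13:16784370-16875828. H3K4me3 covered its lower end with a fold enrichment of 16.4 in GD15M_CM, 22.9 in GD15M_LM and 33.8 in CD15M_CM, at percentiles 82.2, 85.6 and 97.6. The cyclic tissue was thus 15.4 points above GD15M_CM. The order of H3K27ac was another one: the peak at the lower end had 7.06 in GD15M_CM, 10.6 in GD15M_LM and 6.15 in CD15M_CM. In CD15M_CM the highest H3K27ac peak of TGFBR2, with a fold enrichment of 7.11, lay 47.6 to 49.8 kb inside the gene instead. That internal region also carried H3K27ac in the other lists, with 4.21 in GD15M_CM and 7.29 in GD15M_LM, and a short H3K4me3 peak with a fold enrichment of 4.90 in GD15M_LM. The highest H3K27ac peak of the gene ranked at percentiles 97.5, 99.7 and 97.9.

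TGFBR3, betaglycan, the co-receptor that presents TGFB2, is the longest of the 10 genes with 201 kb at chr4:125109939-125310788. The H3K4me3 peak at its lower end also touched the locus LOC100157600 and had a fold enrichment of 22.7 in GD15M_CM, 33.9 in GD15M_LM and 21.9 in CD15M_CM, at percentiles 93.5, 97.5 and 85.9. GD15M_LM was the highest and CD15M_CM the lowest of the 3 tissues in rank, but the gap of 7.54 points between GD15M_CM and CD15M_CM was below the call. H3K27ac over the same end was 6.21, 9.82 and 5.48. In both circular muscle lists a peak at 39.7 to 41.3 kb inside the gene was higher, with 6.66 in GD15M_CM and 6.87 in CD15M_CM, and it held 5.46 in GD15M_LM. The percentiles of the highest H3K27ac peak were 96.4, 99.4 and 97.4.

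**Figure D2:**
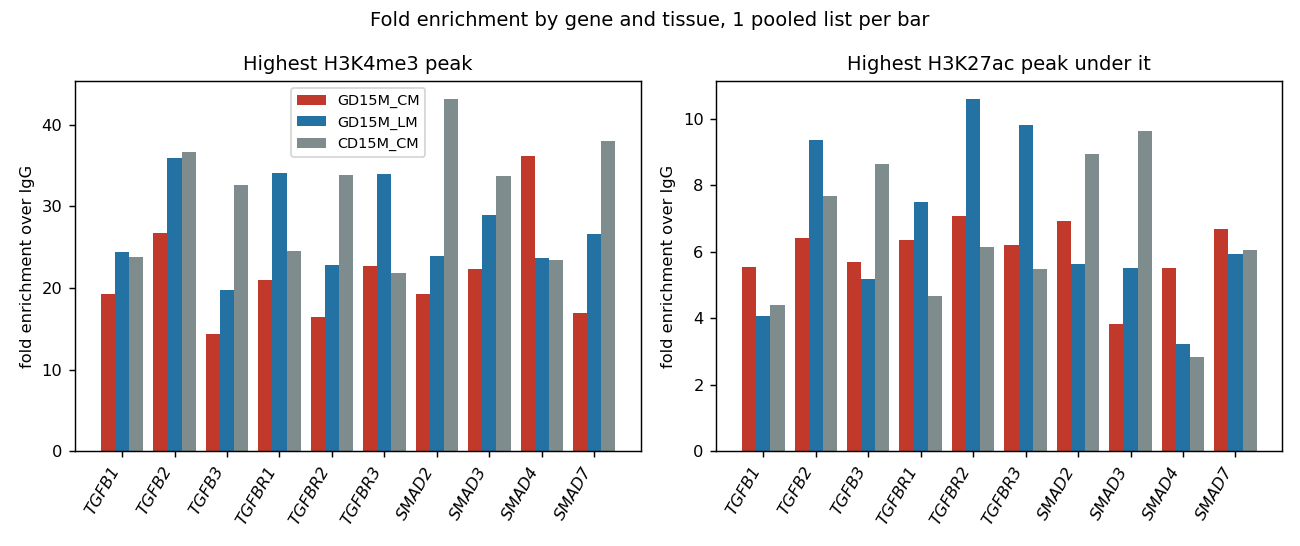
Fold enrichment over IgG of the highest H3K4me3 peak of each gene (left) and of the highest H3K27ac peak lying under it (right), with 1 bar per tissue from 1 pooled list and no error bar. H3K4me3 at SMAD4 was 36.1 in GD15M_CM and 23.7 and 23.4 in GD15M_LM and CD15M_CM, and H3K27ac at SMAD3 was 3.83, 5.50 and 9.62 in GD15M_CM, GD15M_LM and CD15M_CM.

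Among the SMAD genes, 4 of 4 lie on chromosome 1. SMAD2, a receptor-activated SMAD, spans 96.0 kb at chr1:97415360-97511388, and its main peak covered the upper end of the gene. H3K4me3 fold enrichment was 19.3 in GD15M_CM, 23.9 in GD15M_LM and 43.2 in CD15M_CM, at percentiles 88.3, 87.4 and 99.6. H3K27ac was 6.94, 5.62 and 8.93, at percentiles 97.2, 84.5 and 99.7. SMAD2 was highest in the cyclic tissue for both marks, and its H3K27ac rank in GD15M_LM was 12.7 points below that in GD15M_CM.

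SMAD3, the other receptor-activated SMAD, spans 126 kb at chr1:164998457-165124455 with its H3K4me3 peak over the lower end. H3K4me3 fold enrichment was 22.3 in GD15M_CM, 28.9 in GD15M_LM and 33.8 in CD15M_CM, at percentiles 93.1, 94.0 and 97.5, and these differences were below the call. The H3K27ac peak over that end had a fold enrichment of 9.62 in CD15M_CM, 5.50 in GD15M_LM and 3.83 in GD15M_CM. The corresponding percentiles of 99.9, 83.2 and 63.3 placed GD15M_CM 36.5 points below the cyclic tissue and 19.9 points below the longitudinal layer. By length the order was another one, with 5333 bp in GD15M_CM, 4283 bp in CD15M_CM and 3107 bp in GD15M_LM. In GD15M_CM a peak of the gene body at 69.5 to 71.2 kb was higher, with 5.64 at percentile 91.9, and in GD15M_LM one at 59.2 to 60.6 kb, with 5.78 at percentile 86.0. Read over the whole gene, SMAD3 therefore differed by 8.01 points at most between the tissues compared, which was below the call.

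SMAD4, the partner shared by all receptor-activated SMADs, spans 112 kb at chr1:100521843-100633501. Its highest H3K4me3 peak lay in the middle of the gene model, 50.8 to 53.4 kb from the lower end, where LOC102159046 was also annotated. H3K4me3 fold enrichment there was 36.1 in GD15M_CM, 23.7 in GD15M_LM and 23.4 in CD15M_CM, at percentiles 99.7, 87.0 and 88.2. This was the highest H3K4me3 rank in GD15M_CM among the 10 genes, and it was 12.7 points above GD15M_LM and 11.5 points above CD15M_CM. H3K27ac under the same peak was 5.51, 3.22 and 2.83, at percentiles 91.1, 27.8 and 20.1. The highest H3K27ac peak of the window in GD15M_LM (4.00, percentile 56.1) and in CD15M_CM (4.37, percentile 76.3) lay under the neighbouring gene ELAC1, 6.2 to 10.1 kb from the lower end. In both readings GD15M_CM was the highest of the 3 tissues for both marks. Widening the window to 10 kb took in a further peak before the gene, with an H3K27ac fold enrichment of 5.66 in GD15M_CM and 6.83 in GD15M_LM, and the H3K27ac difference between the layers then became 1.25 points in favour of GD15M_LM.

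SMAD7, the inhibitory SMAD, spans 31.1 kb at chr1:98512800-98543924 and carried the longest H3K4me3 domain of the SMAD genes, over its upper end. Its length was 6915 bp in GD15M_CM, 6882 bp in CD15M_CM and 6806 bp in GD15M_LM, longer than 98.5% to 99.2% of the peaks in the respective lists. The length was therefore close in the 3 tissues, whereas the fold enrichment in GD15M_CM, GD15M_LM and CD15M_CM was 17.004, 26.6 and 38.1, at percentiles 83.4, 91.4 and 98.9. CD15M_CM was 15.4 points above GD15M_CM. H3K27ac was at percentiles 96.4, 92.1 and 98.8, with fold enrichments of 6.69, 6.62 and 7.64. These highest H3K27ac peaks lay in different places, at 25.8 to 27.2, 2.1 to 4.2 and 18.4 to 19.7 kb from the lower end.

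The comparison of GD15M_LM with GD15M_CM asked how the muscle layers of the pregnant uterus differ. For H3K4me3, 8 of the 10 genes ranked higher in GD15M_LM, as did 48.3% of all genes, by a median of 1.89 points over the 10 genes and -0.40 over all genes. None of the 10 genes was called higher in GD15M_LM, where 20.2% of all genes were and 5 of the 10 had room to be called. The 1 gene called higher in GD15M_CM was SMAD4, against 20.9% of all genes. For H3K27ac, no gene was called higher in GD15M_LM, against 22.6% of all genes, but all 10 stood above percentile 90 in GD15M_CM and none could have been. TGFB1, SMAD2 and SMAD4 were called higher in GD15M_CM, 3 of 10 against 33.8% of all genes. Among the 10 genes, SMAD2 for H3K4me3 and SMAD3 for H3K27ac ranked lower in GD15M_LM although their fold enrichments there were 1.24 and 1.02 times those in GD15M_CM. The share of called genes was at or below that of all genes in both marks. The epithelial markers, with H3K27ac sums of 435.4 in GD15M_CM and 104.9 in GD15M_LM, moved in the same direction as these 3 genes. The T cell and endothelial sums did so by less. Smooth muscle, mesothelial, macrophage and fibroblast sums were higher in GD15M_LM, at 701.3, 203.6, 179.1 and 309.6 against 684.4, 165.3, 159.1 and 308.3. The part of these markers in the result was not tested. When −log10 p was ranked instead, SMAD2 was 8.38 points higher in GD15M_CM for H3K27ac and no longer called.

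**Figure D3:**
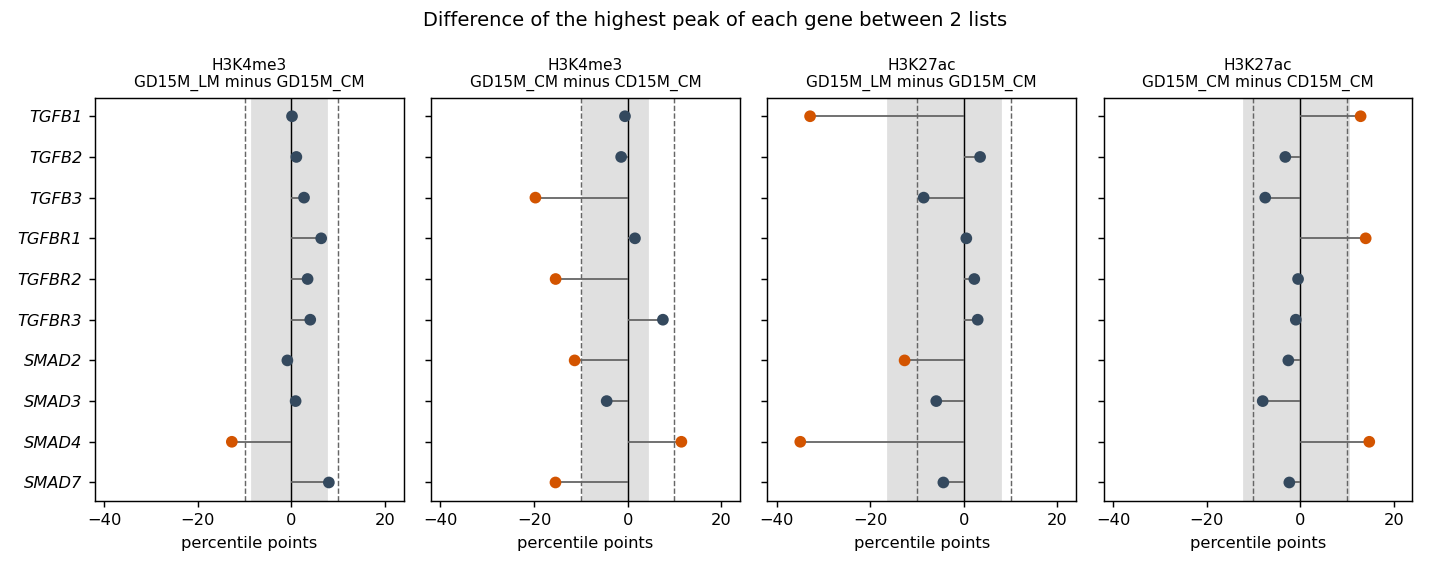
Difference in percentile of the highest peak of each gene between the lists named above each panel, in percentile points. Dashed lines mark the call of 10 points, orange points are called differences, and the grey band spans the middle 50% of all genes. SMAD4 is an orange point in all 4 panels, and TGFB3, TGFBR2, SMAD2 and SMAD7 are called higher in CD15M_CM for H3K4me3.

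The comparison of GD15M_CM with CD15M_CM asked how the circular layer of pregnant gilts differs from that of cyclic gilts on the same day. For H3K4me3, the ligand TGFB3, the receptor TGFBR2, SMAD2 and the inhibitor SMAD7 were called higher in CD15M_CM, by 11.3 to 19.7 points and with fold enrichments 2.06 to 2.28 times those in GD15M_CM. These were 4 of 10 genes, of which 5 had room to be called, against 23.9% of all genes. SMAD4 was called higher in GD15M_CM, by 11.5 points, against 12.4% of all genes. H3K4me3 at most marker lists moved in the direction of the 4 genes as well. The T cell markers went the other way, with sums of 339.3 in GD15M_CM and 273.5 in CD15M_CM. The 8 smooth muscle markers had a sum of 624.6 and a median of 77.0 in GD15M_CM and 692.5 and 87.3 in CD15M_CM, with no marker at 0. The 5 fibroblast markers, with none at 0, summed to 367.7 and 404.8, and the 3 macrophage markers to 139.5, with CD163 at 0, and 210.9. The part of these markers in the result was not tested. Ranked by −log10 p, the differences of SMAD2 (3.16 points) and SMAD7 (8.60 points) kept their direction but were no longer called. Over the 10 genes the median fold enrichment ratio of GD15M_CM to CD15M_CM was 0.695, and over all genes 0.796. The ratios of TGFB3, TGFBR2, SMAD2 and SMAD7 were 0.440 to 0.486, and those of the other 6 genes ran from 0.662 at SMAD3 to 1.54 at SMAD4. At TGFBR1 the scales went opposite ways, with GD15M_CM 1.57 points higher in rank and lower in fold enrichment, at a ratio of 0.857 that lay above the ratio of all genes.

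For H3K27ac in the same comparison, TGFB1, TGFBR1 and SMAD4 were called higher in GD15M_CM by 12.9 to 14.8 points, 3 of 10 against 25.5% of all genes, and these were the 3 genes with room to be called. No gene was called higher in CD15M_CM, against 27.4% of all genes, and none had room for it. Ranked by −log10 p, the differences of TGFB1 (8.77 points) and TGFBR1 (7.64 points) were below the call. Both comparisons used the same GD15M_CM lists, so that the high SMAD4 value of GD15M_CM entered each of them. Between these tissues the summed H3K27ac percentiles of the 5 fibroblast markers were 308.3 in GD15M_CM, with no peak at LUM, and 400.3 in CD15M_CM, and those of the 8 smooth muscle markers were 684.4 and 756.7. CD163, 1 of the 3 macrophage markers, had no H3K27ac peak in either tissue, and their H3K27ac sums were 159.1 and 172.7. The epithelial and T cell sums went the other way, at 435.4 and 99.7 in GD15M_CM against 354.7 and 80.3 in CD15M_CM. The part of these markers in the result was not tested.

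When only H3K27ac under the highest H3K4me3 peak was read, an alternative chosen after the values were seen, SMAD3 and SMAD4 separated more. Over the 10 genes the median of GD15M_LM minus GD15M_CM was -4.31 points, against -5.15 over the whole window. That of GD15M_CM minus CD15M_CM was 2.34 points, against -1.62. Between the layers, SMAD3 was called higher in GD15M_LM (25.2% of all genes), and TGFB1, TGFB3, SMAD2 and SMAD4 were called higher in GD15M_CM (32.6% of all genes). In the circular layer, TGFB1, TGFBR1 and SMAD4 were called higher in GD15M_CM (28.9% of all genes), and SMAD3 was called higher in CD15M_CM (26.6% of all genes). SMAD4 differed most, with GD15M_CM 63.3 points above GD15M_LM and 71.0 points above CD15M_CM. SMAD3 and SMAD4 thus stood in opposite order in the 3 tissues, SMAD3 being lowest and SMAD4 highest in GD15M_CM.

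Beyond the main peaks, the genes differed in the number of H3K27ac peaks in their windows, which was not adjusted for window length. In GD15M_CM, GD15M_LM and CD15M_CM, SMAD3 had 56, 23 and 47 H3K27ac peaks, TGFBR3 36, 39 and 52, TGFBR2 32, 31 and 28, and TGFB2 16, 16 and 25. SMAD7, although only 31.1 kb long, had 20, 13 and 16 peaks covering 64.0%, 39.2% and 55.5% of its window, where the median over genes with a peak was 8.35%, 6.25% and 8.22%. TGFBR1 had 1, 1 and 3 peaks, SMAD2 3, 1 and 3, and SMAD4 2, 2 and 5, close to the median of 2 to 3 peaks over all genes with a peak. The long genes SMAD2, SMAD4 and TGFBR1 therefore held few peaks beyond their main one, unlike SMAD3 and TGFBR2, which have lengths of the same order. By share of the window covered, the order of the genes was another one. TGFB2 had 8.66%, 11.9% and 16.9% in GD15M_CM, GD15M_LM and CD15M_CM, the first close to the median. TGFB1, with 4, 6 and 3 peaks, had 33.4%, 24.8% and 27.4%. TGFB3, with 8, 5 and 6 peaks, had 22.1%, 27.7% and 32.9%.

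**Figure D4:**
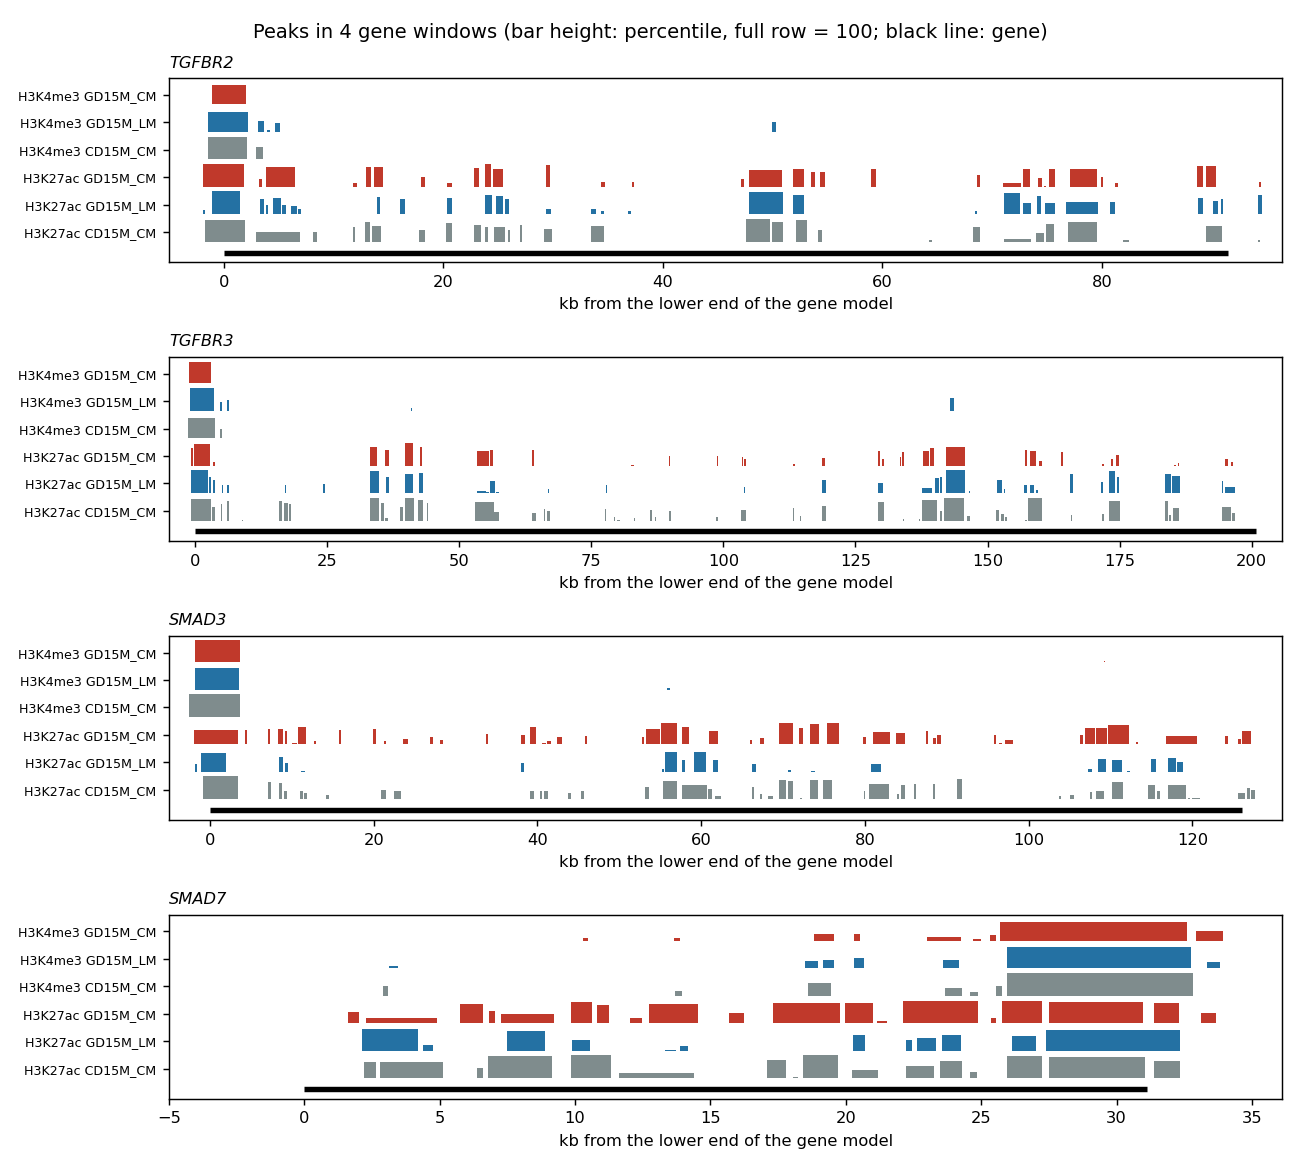
Peaks of both marks in the windows of TGFBR2, TGFBR3, SMAD3 and SMAD7, with 1 row per mark and tissue. The horizontal axis is the distance in kb from the lower end of the gene model (black line), and the height of each bar is the percentile of the peak, with 100 filling the row. H3K4me3 is concentrated at 1 end of each gene, and H3K27ac extends across the gene body, with 56, 23 and 47 peaks at SMAD3 in GD15M_CM, GD15M_LM and CD15M_CM.

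SMAD3 was the gene with the largest difference in the number of H3K27ac peaks between the layers. Its peaks covered 47.3 kb in GD15M_CM, 16.9 kb in GD15M_LM and 35.7 kb in CD15M_CM. After overlapping peaks of the 3 lists had been joined, its window held 61 regions, of which 16 were found in all 3 tissues, 20 in GD15M_CM only, 15 in both circular muscle lists, 8 in CD15M_CM only and 0 in GD15M_LM only. The regions found only in GD15M_CM made up 32.8% at SMAD3 and 21.2% over the windows of all genes, and those shared by both circular lists 24.6% and 11.9%. The shorter H3K27ac list of GD15M_LM, with 57010 peaks against 79877 and 82037, goes the same way, and its part was not tested. Of all peaks of the list, the SMAD3 window held 0.0701% in GD15M_CM, 0.0573% in CD15M_CM and 0.0403% in GD15M_LM.

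Over the windows of all genes, 19.4% of H3K27ac regions were found in CD15M_CM only, 7.29% in GD15M_LM and CD15M_CM and 21.2% in GD15M_CM only. At TGFBR3, the co-receptor, 15 of 52 regions were found in CD15M_CM only (28.8%), 9 in GD15M_LM and CD15M_CM (17.3%) and 3 in GD15M_CM only (5.77%). At TGFB2, 8 of 27 regions were found in CD15M_CM only (29.6%), 5 in GD15M_LM and CD15M_CM (18.5%) and 2 in GD15M_CM only (7.41%). At SMAD7, 9 of 14 regions were found in all 3 tissues, the largest share among the 5 genes with more than 10 regions. Over the 10 genes, 79 of 209 H3K27ac regions (37.8%) were found in all 3 tissues, against 33.4% over the windows of all genes. The corresponding H3K4me3 counts were 15 of 49 regions (30.6%) and 46.1%, and each of the 10 main H3K4me3 peaks lay in a region shared by the 3 tissues. Regions found in GD15M_LM only made up 12 of the 49 (24.5%), against 11.5% over all windows, among them 3 each at TGFBR2 and TGFBR3, with fold enrichments of 2.92 to 6.84.

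**Figure D5:**
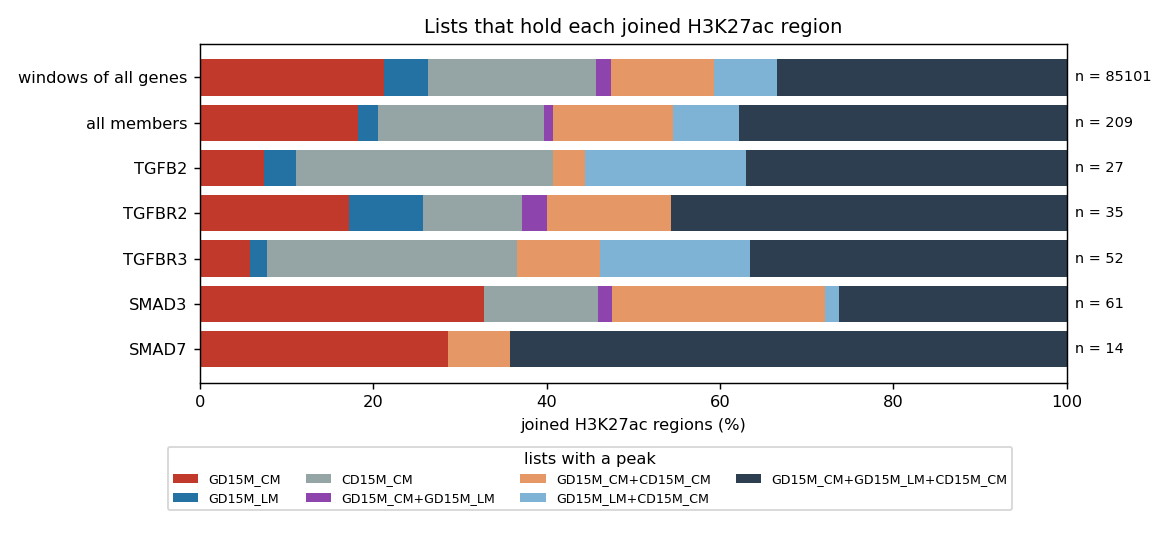
Share of joined H3K27ac regions, in percent, by the lists that hold a peak in them, for the windows of all genes, of the 10 genes together and of the 5 genes with more than 10 regions (n is the number of regions). SMAD3 has 32.8% of its regions in GD15M_CM only, TGFB2 and TGFBR3 have 29.6% and 28.8% in CD15M_CM only, and SMAD7 has 64.3% in all 3 lists.

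Most H3K4me3 peaks at the 10 genes overlapped H3K27ac by at least 1 bp: 25 of 31 in GD15M_CM (80.6%), 28 of 35 in GD15M_LM (80.0%) and 24 of 32 in CD15M_CM (75%). Over the windows of all genes the shares were 69.4%, 69.3% and 68.5%. In the other direction, 31 of 178 H3K27ac peaks (17.4%), 38 of 137 (27.7%) and 30 of 188 (16.0%) overlapped H3K4me3, against 37.6%, 49.9% and 38.8%. Pooled over the 10 genes, the share of H3K27ac peaks without H3K4me3 was thus larger than over all windows. The windows of SMAD3, TGFBR3, TGFBR2 and TGFB2 held 131 of the 147 such peaks in GD15M_CM. At each of the other genes in GD15M_CM the share overlapping H3K4me3 was above 37.6%, from 50% at SMAD4 and SMAD7 to 100% at TGFBR1.

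A list of 84 other genes of the pathway was counted in the same way. For H3K4me3, 22 of the 77 with a peak were called higher in GD15M_LM than in GD15M_CM (28.6%) and 9 were called lower (11.7%), against 20.2% and 20.9% of all genes. The largest differences towards GD15M_LM were those of TNC, the matrix glycoprotein tenascin-C, at percentile 73.8 against 37.8, and of the ligand GDF10 (33.5) and the matrix protein POSTN (33.4), both without a peak in GD15M_CM. Towards GD15M_CM they were those of the BMP receptor BMPR1B, at 97.4 against 54.2, of INHBA, an activin subunit, at 97.0 against 62.4, and of the transcriptional regulator ID2, at 90.0 against 71.1. By group, those called higher in GD15M_LM and in GD15M_CM were 4 and 0 of 12 genes for latency and activation, 7 and 2 of 15 activin, BMP and GDF ligands, 2 and 3 of 12 receptors, 2 and 1 of 10 other SMADs and partners, 3 and 1 of 13 inhibitors, and 4 and 2 of 15 targets.

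Between GD15M_CM and CD15M_CM, 24 of 77 were called higher in CD15M_CM for H3K4me3 (31.2%) and 8 in GD15M_CM (10.4%), against 23.9% and 12.4% of all genes. POSTN (55.8), GDF10 (54.8) and the activin receptor ACVR1C, at 59.1 against 23.1, were furthest towards the cyclic tissue, the former 2 without a peak in GD15M_CM. Among those furthest towards GD15M_CM were the ligand GDF15 (58.9 against 42.0) and LTBP3, which binds latent TGF-beta (84.5 against 70.3). In the same order of groups, those called higher in CD15M_CM and in GD15M_CM were 6 and 1 of 12, 6 and 2 of 14, 3 and 2 of 12, 2 and 1 of 10, 2 and 1 of 14, and 5 and 1 of 15.

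H3K27ac at the same genes was called higher in GD15M_LM at 20 of 79 (25.3%) and in GD15M_CM at 22 (27.8%), against 22.6% and 33.8% of all genes. The BMP antagonist NOG (69.3) and the ligand BMP5 (64.0) had a peak in GD15M_LM and none in GD15M_CM, and the ligand BMP6 was at 72.0 against 10.2. BMPR1B (91.0 against 6.51), the ligand GDF11 (88.1 against 11.4) and the activin receptor ACVR2B (78.8 against 18) were furthest towards GD15M_CM. Towards GD15M_CM over CD15M_CM, with 17 of 79 called (21.5%, against 25.5% of all genes), they were LEFTY2, an inhibitor of Nodal signalling (90.3 against 1.44), the integrin subunit ITGAV (94.9 against 43.4) and GDF15 (48.8 against 5.59). Towards CD15M_CM, with 19 of 79 called (24.1%, against 27.4%), they were the ligands MSTN (72.3) and GDF6 (64.1), both without a peak in GD15M_CM, and BMP6 (75.1 against 10.2). For H3K27ac the groups, in the same order, had 13, 15, 13, 11, 13 and 14 genes with a peak in either layer. Of these, 2, 8, 2, 2, 4 and 2 were called higher in GD15M_LM and 5, 5, 4, 4, 1 and 3 in GD15M_CM. Between the circular layers the groups had 12, 16, 13, 11, 13 and 14 genes with a peak. Of these, 5, 3, 1, 2, 2 and 4 were called higher in GD15M_CM and 1, 8, 3, 2, 4 and 1 in CD15M_CM. The counts of latency and activation genes there leaned opposite ways in H3K4me3 and H3K27ac, but mostly not at the same genes. LTBP3 was called higher in GD15M_CM for both marks, by 14.2 and 12.0 points. BMPR1B was the one gene named for both marks in the comparison of the layers.

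Over the 6 percentiles of 3 tissues and 2 marks, the pathway gene most like TGFB1 was SMAD4, with a root mean square difference of 4.89 points. Both had low H3K27ac ranks in GD15M_LM, at 58.3 and 56.1. TGFB2 was closest to SMURF2, a ubiquitin ligase that acts with SMAD7, at 1.91 points. The lowest of the 6 percentiles was 95.6 for TGFB2 and 98.9 for SMURF2. Both thus stood near the ceiling of all 6 lists, which limits the size of any difference between them. TGFB3 was closest to PMEPA1, an inhibitor induced by the pathway, at 5.0 points, with SMAD2 next at 5.92 points.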

How the data were processed

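The 18 CUT&Tag libraries of H3K4me3, H3K27ac and IgG were assigned to groups by their labels, 2 gilts per mark and tissue. Per the submitters' processing notes and the study's methods, the authors aligned reads with BWA 0.7.17-r1188 to assembly 11.1 of Sus scrofa, removed duplicates and reads with a mapping quality under 25 with SAMtools 1.9 and Picard 2.8.3, pooled both gilts, and called peaks with MACS2 2.2.6. The deposited lists give each peak's position, length and fold enrichment, a ratio of mark over IgG whose scaling is not given in the sources used here. The deposited −log10 p and −log10 q columns carry unreadable names: the former was identified by comparison with the study's own annotated peaks, and the latter was inferred from its lowest value and used for no result. Reads per library are not in the lists, and depth per gilt could not be turned into an error.

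Genes came from RefSeq for the same assembly, without strand. A peak belonged to a gene when it reached the window from 3 kb before to 3 kb after it, and overlaps counted from 1 bp. Since each group had 1 list, no test was run and no p-value is given; a percentile difference of at least 10 points was a call, set beside the share over all genes with a peak in either list. Python 3.11.15, pandas 2.3.3, NumPy 2.4.6 and Matplotlib 3.10.9 were used, and the window and joining steps were tested on simulated data.

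The 10 genes, the pathway and marker lists and the calls were chosen with earlier results of these data known. All 10 genes are named. From 84 other pathway genes, the 3 with the largest difference per direction and comparison are named, and the gene most like each ligand; 1 of these results is not reported here. All 84 were placed, CCN2 through its older symbol, and 1 mesothelial marker, MSLN, was not. The summed percentiles of the other marker lists, in the order GD15M_CM, GD15M_LM and CD15M_CM, were 304.0, 317.8 and 325.0 for H3K4me3 and 237.6, 230.1 and 249.0 for H3K27ac at 5 endothelial genes, and 193.8, 160.2 and 210.0 and 165.3, 203.6 and 219.6 at 3 mesothelial genes. The background of genes at percentile 75 or above and the reading under the H3K4me3 peak were added after the values were seen. Per-gilt differential regions, RNA-seq and promoter sequences were not analysed here.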

Additional observations from a re-analysis of the deposited data

How the results depend on the processing

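Of 300 differences of single genes recomputed under other settings, 264 stayed within 10 points of their value, 29 gained a call and 12 lost one. The sign changed in 21, of which 1 had been called. Of 92 counts of called genes, 59 were equal, 5 changed by up to 1.5 times and 28 by more. With a minimum −log10 p of 10 and a minimum fold enrichment of 5, 3 genes (TGFBR1, TGFBR2, SMAD7) were called higher in GD15M_LM and 2 (TGFBR3, SMAD4) in GD15M_CM over CD15M_CM for H3K4me3, and for H3K27ac 4 in GD15M_LM, 5 in GD15M_CM over GD15M_LM and 5 in CD15M_CM, beside backgrounds of 25.3% to 46.8%. Joining peaks less than 1 kb apart gave 2 genes higher in GD15M_LM and 2 in GD15M_CM over CD15M_CM for H3K4me3, and 2 (TGFB3, SMAD3) in CD15M_CM for H3K27ac. Searching the gene ends only, which leaves out the main peaks of SMAD4 and TGFBR1, gave 0 for H3K4me3 in GD15M_CM over either tissue, and for H3K27ac 1 in GD15M_LM and 1 in CD15M_CM (SMAD3 in both) and 1 (TGFB1) in GD15M_CM over CD15M_CM. H3K27ac under the H3K4me3 peak alone also gave 1, SMAD3, in GD15M_LM and in CD15M_CM. Equal numbers of top peaks gave 2 in CD15M_CM for H3K27ac. Ranking by −log10 p left 2 (TGFB3, TGFBR2) of the 4 higher in CD15M_CM for H3K4me3 and 1 (SMAD4) of the 3 higher in GD15M_CM over CD15M_CM for H3K27ac. A call of 20 points left 0 for H3K4me3 in all but GD15M_LM, where the count was already 0, and 0 for H3K27ac in GD15M_CM over CD15M_CM. A fold enrichment ratio of 1.5 gave 2 in GD15M_LM for H3K4me3, and for H3K27ac 1 in GD15M_LM, 0 in GD15M_CM in both comparisons and 2 (TGFB3, SMAD3) in CD15M_CM. With a window of 10 kb, H3K27ac was called higher in GD15M_CM than in GD15M_LM at 1 gene, SMAD2; SMAD4 turned to 1.25 points in favour of GD15M_LM, and the difference of TGFB1 (GD15M_LM minus GD15M_CM) became -8.54. The causes of the other shifts were not tested. TGFB3 and TGFBR2 kept their H3K4me3 call in all 7 recomputations of their percentiles, with differences of 14.3 to 41.8 and 10.9 to 32.7 points.

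No paired analysis was possible because the reads of a group's 2 gilts entered 1 list, and for the same reason no gilt was left out in turn. A window around the transcription start site was not run, since strand was not available here. The number of gilts, the absence of a spread between them and the ceiling of a percentile limit every comparison, and reads per library were not used.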

Other observations

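From the edge of the gene windows out to about 50 kb, a range chosen after the values were seen, the genes differed in how many H3K27ac peaks surrounded them. Counts over all genes are not given for this range. SMAD2 had 0 peaks of either mark there in GD15M_CM, GD15M_LM and CD15M_CM, and TGFBR1 had 0, 0 and 1 H3K27ac peaks. TGFB1, in contrast, had 31, 23 and 34 H3K27ac peaks and 25, 19 and 22 H3K4me3 peaks in this range, and SMAD3 had 15, 5 and 5 H3K27ac peaks. At SMAD7 the highest H3K27ac peak of the range lay 23.6, 24.4 and 24.2 kb beyond the upper end of the gene in the 3 tissues, with fold enrichments of 5.62, 6.96 and 4.92. H3K4me3 at the same distance was 12.4, 24.9 and 17.3. In this place GD15M_LM was the highest of the 3 tissues for both marks. Over SMAD7 itself CD15M_CM was the highest for H3K4me3. For H3K27ac CD15M_CM led only by the highest peak of the whole window, which lay in a different place in each tissue. Under the main H3K4me3 peak of SMAD7, H3K27ac fold enrichment was highest in GD15M_CM (6.69), followed by CD15M_CM (6.06) and GD15M_LM (5.92). The peaks outside the gene windows were not assigned to a gene.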
